A study of Mus musculus with 2 samples.

Results

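The cadherin and protocadherin genes of the mouse striatum were described across the cell classes of 2 single-cell RNA libraries. Members were all genes whose symbol is Cdh followed by a digit or starts with Pcdh, which gave 92 of the 32285 genes in the files. Cadherins numbered 23, of which 5 were type I, 13 type II and 5 of other kinds. Protocadherins numbered 69, of which 57 belong to the alpha (14), beta (22) and gamma (21) gene clusters and 12 lie outside them. The symbol Pcdha11 stands for 2 gene identifiers in the annotation, and both were counted as members.

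Each library was a suspension of dissociated striatum from untreated adult mice of 8 to 10 weeks, labelled as enriched for glia, and the libraries are replicates 1 and 2 of 1 condition. The strain is given as C57/Bl6J in the sample fields and as C57BL/6NTac in the protocol, and no transgene or deletion is named. Per the study's methods, actinomycin D, which blocks transcription, was in the recovery and dissociation solutions. The tissue was digested with pronase and passed through a myelin and debris removal step before capture, so shares of cell classes are those of what survived these steps. The labels do not say how many mice were pooled in a library or whether the libraries came from different mice. For its single-cell data the study's methods name male mice, slightly younger than labelled here, and more mice than the 2 libraries. They do not say which mice went into these libraries. The p-values below therefore speak only for these 2 libraries. They set each difference between classes against how far such differences varied from 1 library to the other. The shift common to a library was taken out as a block, and the spread of each gene was moderated by that of all genes. The classes were also drawn from the same cells by other genes, a step that the p-values do not account for.

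Cadherins are membrane proteins that bind to copies of themselves on the neighbouring cell through a row of calcium-dependent domains. The type I and type II cadherins, called classical, hold their grip through catenins, which tie the cytoplasmic tail to actin. Protocadherins have a related outer part but a different tail that does not engage the classical catenins. The delta-1 and delta-2 protocadherins are separate genes, whereas the clustered ones share a genomic array in which promoter choice gives each neuron its own set, the basis of self-recognition between branches of the same cell. In the brain Cdh2 (N-cadherin) is the general neural cadherin, Cdh5 (VE-cadherin) is the cadherin of endothelial junctions, and the type II genes are known for region-specific expression in neurons.

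The libraries held 6978 and 5437 barcodes with 44597660 and 37982720 unique molecular identifiers (UMIs), at a median of 3852 and 5375 UMIs per barcode, and 9 barcode sequences occurred in both. After filtering, 6783 and 5212 cells were clustered without any member among the clustering genes, and 9 classes with cells in both libraries entered the tests. They are named by markers as neuron-like, oligodendrocyte precursor cell (OPC)-like, oligodendrocyte-like, astrocyte-like, endothelial-like, mural-like, microglia-like and macrophage-like. The remaining class goes by its leading genes, Ccnd2 and Sox11, since cell-cycle genes such as Top2a and Mki67 stood among its top 10 genes beside neuroblast markers. Its neuroblast markers summed to 7868 and 6572 counts per 1000000 UMIs (CPM) and its progenitor markers to 1898 and 2597 CPM. Each class held between 75 and 1311 cells per library, no marker of a class was at 0 in that class, and median depth ran from 1742 UMIs in astrocyte-like cells of library 1 to 12211.5 in oligodendrocyte-like cells of library 2. The mural-like class also carried 5963 and 6754 CPM of endothelial markers, and the OPC-like class 12867 and 8977 CPM of oligodendrocyte markers. Levels are CPM (the share of a gene in all UMIs of a class in a library, scaled to 1000000 UMIs), and are compared between classes and not between genes.

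Members were read widely but unevenly. Of the 92 members, 73 had enough UMIs for the test (18 cadherins and 55 protocadherins), and 1, Pcdhb1, had no UMI in any class. The 5 cadherins left out were Cdh1, Cdh3, Cdh15, Cdh16 and Cdh17, with 1 to 40 UMIs each. Cdh1 (E-cadherin), the cadherin of epithelia, had 12 UMIs in all, of which 11 came from 1 mural-like cell of library 2. Of the clustered genes, 5 of 14 alpha, 21 of 22 beta and 17 of 21 gamma genes were tested. All 14 alpha and 21 gamma genes share their last exons with their neighbours, and the counting kept only reads assigned to 1 gene, so 3′ reads from the shared exons were lost to it and their counts are uncertain. No beta gene had a last exon that was mostly shared.

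Every one of the 18 cadherins tested, and 48 of the 55 protocadherins, differed among the classes in edgeR's quasi-likelihood F test at an adjusted p under 0.05, a test that 97.0% of all 15535 genes passed. The 7 that did not pass were all gamma genes. A stricter rule asked whether a member was higher in a class than in each of the other 8. It held for 10 members: 6 cadherins (Cdh5, Cdh7, Cdh8, Cdh9, Cdh19 and Cdh23) and 4 protocadherins (Pcdh9, Pcdh15, Pcdh18 and Pcdh20). That is 13.7% of the members tested, against 28.6% of all genes and 22.9% of the genes that the clustering did not use. The share was 33.3% for the 18 cadherins, 33.3% for the 12 protocadherins outside the clusters, and 0 of 43 for the clustered genes. Cdh8, Pcdh9, Pcdh15 and Pcdh18 passed in all 10 alternative fits, whereas Cdh19 missed the threshold in 8 of them, Cdh23 in 7, Pcdh20 in 5, Cdh7 in 2, and Cdh5 and Cdh9 in 1 each.

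**Figure D1:**
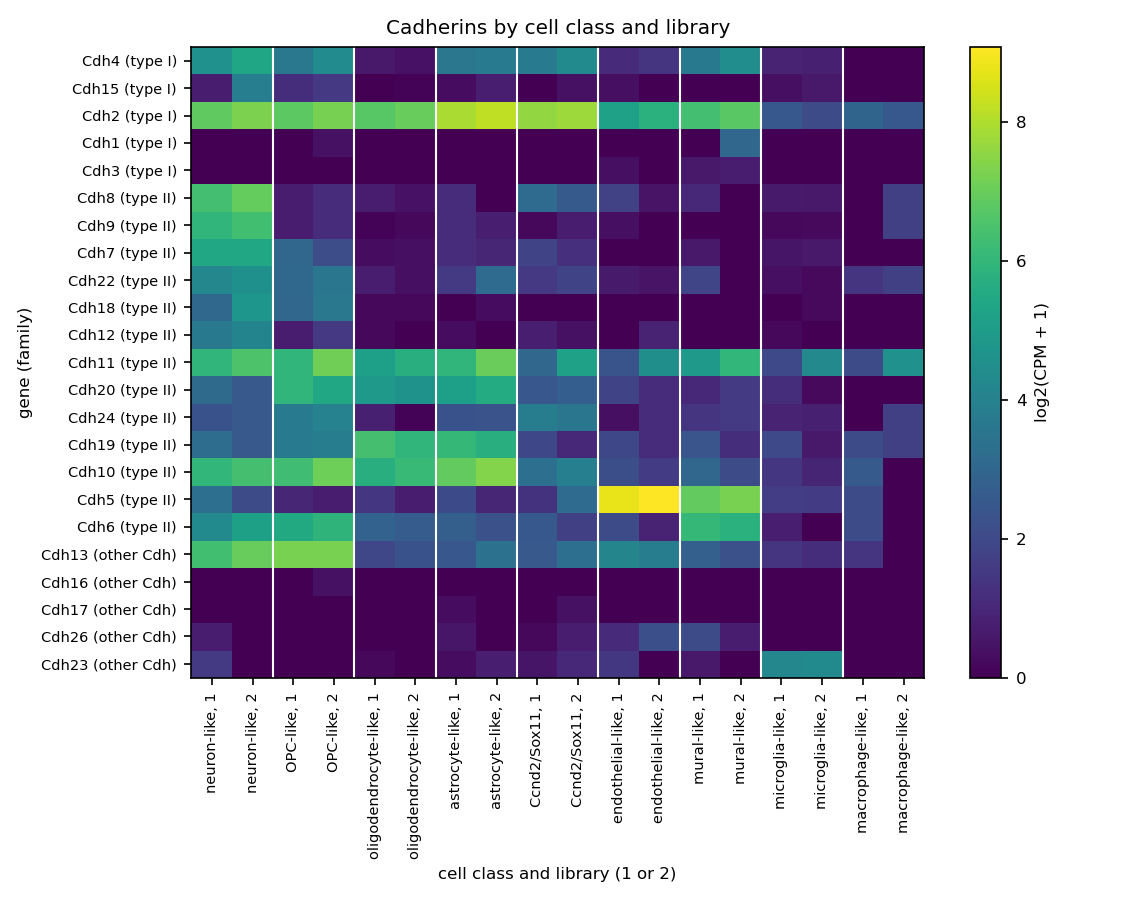
Level of each of the 23 cadherins, in log2(CPM + 1), by cell class and library (columns 1 and 2 of each class); brighter is higher. Cdh7, Cdh8, Cdh9 and Cdh12 are brightest in the neuron-like columns, Cdh5 in the endothelial-like and mural-like ones, and Cdh23 in the microglia-like ones.

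A wider rule compared each class with the mean of the other 8. In neuron-like cells 12 of 18 cadherins and 41 of 55 protocadherins were higher than that mean, with medians of 2.08 and 2.56 on the log2 scale against -0.17 over all genes, where 26.1% of all genes were higher. In OPC-like cells the counts were 12 and 34, with medians of 2.12 and 1.98 against -0.02, and 26.6% of all genes. Ccnd2/Sox11 cells had 5 and 27 higher, against 31.7% of all genes, and astrocyte-like cells 7 and 20, against 26.7%. The counts were 3 and 12 in endothelial-like cells (26.0% of all genes), 5 and 8 in mural-like cells (22.5%), and 5 and 11 in oligodendrocyte-like cells (35.0%). The neuron-like and OPC-like shares stood above those of all genes in both families and under both scalings. The oligodendrocyte-like shares (27.8% and 20.0%) stood below, but with library sizes alone the cadherin share was 22.2%, against 19.8% of all genes. Where a member had no UMI in a class, its difference from the mean depends on the small prior count edgeR adds, so the medians are descriptions and not bounds.

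Few members were higher in the immune classes. In microglia-like cells 1 cadherin and no protocadherin of the 73 members tested was higher than the mean of the other classes, against 33.6% of all genes, and 7 cadherins and 11 protocadherins were lower, against 21.5%. The cadherin share is 38.9% and the protocadherin share 20.0%, so the latter is not above that of all genes. With library sizes alone as the scaling 9 of 18 cadherins and 23.6% of protocadherins were lower, against 34.5% of all genes. In macrophage-like cells no member was higher, against 17.3% of all genes, and 5 cadherins and 12 protocadherins were lower, against 14.5%. Cdh2 was at 4.65 and 3.28 CPM in microglia-like cells and at 6.68 and 4.63 CPM in macrophage-like cells, where every other class had at least 35.7 CPM. The macrophage-like class had the fewest UMIs, and 7 of its 18 tested cadherins and 38 of its 55 tested protocadherins had no UMI in either library, so a low level there was often not measurable.

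In neuron-like cells 3 of the 18 cadherins tested and 0 of the 55 protocadherins were higher than in each other class, where 4.62% of all genes were. As 3 of the 73 members tested, this is near the share of all genes. All 3 were type II. Cdh7 is at chr1:109982431-110140157 on the plus strand (GRCm38), Cdh8 at chr8:99024471-99416471 on the minus strand, and Cdh9 at chr15:16728756-16857094 on the plus strand. All 3 encode classical type II cadherins known from neuronal circuits. They are shown first by sequence, because they were read in the same class. The windows below are the 250 bases before and 50 after a RefSeq transcript start (GRCm38.p6), 5′ to 3′ on the gene's strand. The table held promoters for 22 of the 92 members. Capitals mark matches, on either strand, to the E-box CANNTG, the TATA-box letters TATAAA, the Sox-type letters ACAAAG and the Ets-type letters GAGGAA, and no match overlapped another in these windows. The Cdh7 window is chr1:109982650-109982949, the most upstream of 3 in the table, the Cdh8 window chr8:99416422-99416721 and the Cdh9 window chr15:16728665-16728964.
Cdh7: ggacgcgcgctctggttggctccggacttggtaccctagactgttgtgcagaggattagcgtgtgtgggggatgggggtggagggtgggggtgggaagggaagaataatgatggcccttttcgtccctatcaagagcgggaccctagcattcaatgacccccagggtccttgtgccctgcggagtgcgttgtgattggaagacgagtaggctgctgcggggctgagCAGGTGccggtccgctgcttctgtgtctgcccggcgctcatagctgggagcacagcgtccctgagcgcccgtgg
Cdh8: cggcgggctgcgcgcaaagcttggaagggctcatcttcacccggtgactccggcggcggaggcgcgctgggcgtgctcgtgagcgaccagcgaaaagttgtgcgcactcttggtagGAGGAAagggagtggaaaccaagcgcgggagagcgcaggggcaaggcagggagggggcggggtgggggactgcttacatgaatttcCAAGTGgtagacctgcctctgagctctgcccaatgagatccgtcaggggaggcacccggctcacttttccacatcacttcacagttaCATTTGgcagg
Cdh9: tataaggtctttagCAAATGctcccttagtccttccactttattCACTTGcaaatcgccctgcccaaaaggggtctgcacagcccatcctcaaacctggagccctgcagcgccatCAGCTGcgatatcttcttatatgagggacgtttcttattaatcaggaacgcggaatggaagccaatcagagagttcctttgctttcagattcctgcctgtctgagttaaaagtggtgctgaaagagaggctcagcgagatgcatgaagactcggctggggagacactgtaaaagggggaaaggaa

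The Cdh7, Cdh8 and Cdh9 windows held 1, 2 and 3 E-boxes, and the Cdh8 window also held 1 Ets-type match. The Cdh7 window lies wholly inside the annotated gene, and the transcript start of the Cdh9 window lies downstream of the first base of its gene. E-boxes were in 72.3% of the 32851 promoters of the table and in 15 of the 25 windows of members. TATAAA was in 13.6% of all promoters and 2 of 25 windows of members, ACAAAG in 18.7% and 5, and GAGGAA in 28.3% and 9. The median GC content was 60.3% over the windows of members and 52.7% over all promoters, given as a description. A letter match is not a binding site.

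Cdh8 was read at 81.4 and 120 CPM in neuron-like cells, with 19.6% and 30.4% of those cells carrying at least 1 UMI. The next class, Ccnd2/Sox11, stood at 7.98 and 4.96 CPM, and the libraries of the classes did not overlap. The difference was 3.76 on the log2 scale (SE 0.41, edgeR quasi-likelihood test, adjusted p = 2.72e-04). Cdh7 was at 41.4 and 41.5 CPM in neuron-like cells and at 6.92 and 3.42 CPM in OPC-like cells, a log2 difference of 3.05 (SE 0.39, adjusted p = 6.69e-04). Cdh9 was at 62.0 and 78.3 CPM, and no other class had more than 5 UMIs in a library. Its adjusted p over each other class was 1.44e-04, and its level was 71.4 times that of macrophage-like cells, which had 1 UMI against 194 (95% counting interval 12.7 to 2836). With cells of under 20% mitochondrial UMIs alone, clustered anew, the neuron-like class came to 1106 and 394 cells in place of 383 and 260. It thus took in cells that the main clustering had placed elsewhere. Its median depth was 1281 and 1831.5 UMIs in place of 2470 and 2638.5, and astrocyte-like cells went from 1311 and 981 to 680 and 636. In this changed neuron-like class the mean levels of Cdh8 and Cdh9 were 59.7 and 37.3 CPM in place of 101 and 70.2. Cdh7 and Cdh9 then no longer passed over each other class. The log2 difference of Cdh8 was 2.48 (SE 0.46) between the finer classes, and that of Cdh7 4.23 (SE 0.47) with doublets kept.

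Several other members had their highest level in neuron-like cells in both libraries without passing over each other class. Cdh12, a further type II gene, was at 11.6 and 15.97 CPM in neuron-like cells on 18 and 20 UMIs, and its log2 difference from OPC-like cells was 3.46 (SE 0.74, adjusted p = 0.13). Pcdh8, a delta-2 protocadherin first known as an activity-induced synaptic gene, was at 32.3 and 74.3 CPM against 21.7 and 34.8 CPM in OPC-like cells, so the libraries overlapped. Pcdhac2, which lies at the downstream end of the alpha cluster, was at 11.6 and 9.58 CPM in neuron-like cells. In mural-like cells it had no UMI in library 1 and 11 UMIs in 11 cells of library 2. Pcdhb16 was at 14.9 and 17.6 CPM against 7.55 and 9.63 CPM in OPC-like cells, a log2 difference of 0.95 (SE 0.40, adjusted p = 0.488).

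OPC-like cells were marked by Pcdh15 and Pcdh20, the only members higher there than in each other class, where 1.01% of all genes were. Pcdh15 (chr10:73099342-74649737, plus strand) is known as a tip-link protein of inner-ear hair cells. It was at 287 and 340 CPM in OPC-like cells and at 18.1 and 47.1 CPM in neuron-like cells, the next class, a log2 difference of 3.28 (SE 0.33, adjusted p = 3.13e-05). In library 1 alone the difference was 3.98 and in library 2 alone 2.76. At least 1 UMI was found in 67.7% and 69.9% of OPC-like cells. With cells of at least 1000 UMIs thinned to 1000, and the others left out, the shares were 29.7% and 26.7%. In microglia-like cells, given for comparison, the unthinned shares were 0.179% and 0.0975%, at median depths of 6928 and 5502 UMIs against 7398 and 7334.5 in OPC-like cells.

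Pcdh20 (chr14:88464743-88471396, minus strand) was at 36.5 and 46.6 CPM in OPC-like cells and at 17.9 and 12.6 CPM in astrocyte-like cells, a log2 difference of 1.13 (SE 0.24, adjusted p = 0.0297). Between the finer classes it was 0.54 (SE 0.28) and missed the threshold. Cdh13 (T-cadherin), which lacks a cytoplasmic tail and is held by a lipid anchor, was at 152 and 151 CPM in OPC-like cells and at 80.1 and 124 CPM in neuron-like cells. It was 4.27 higher on the log2 scale than the mean of the other classes (SE 0.18, adjusted p = 5.06e-12), but only 0.57 (SE 0.23) above neuron-like cells after scaling. Cdh20 and Cdh24, both type II, were near level between OPC-like cells and the next class. Cdh20 was at 61.1 and 41.3 CPM against 33.9 and 46.7 CPM in astrocyte-like cells, and Cdh24 at 11.96 and 15.2 CPM against 13.2 and 10.9 CPM in Ccnd2/Sox11 cells. Pcdhb10 was at 8.18 and 11.5 CPM in OPC-like cells, on 26 and 37 UMIs, and at 1.67 and 2.61 CPM in astrocyte-like cells. Its log2 difference of 1.87 (SE 0.51) did not pass over each class (adjusted p = 0.364).

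The delta protocadherins Pcdh7, Pcdh11x and Pcdh17 were also highest by CPM in OPC-like cells in both libraries, but close to other classes. Pcdh17 was at 250 and 256 CPM in OPC-like cells and at 216 and 222 CPM in neuron-like cells. Pcdh7 was at 190 and 181 CPM, with astrocyte-like cells at 127 and 157 CPM. The scaling factors of the tests were 1.23 and 1.32 in OPC-like and 1.04 and 1.02 in astrocyte-like cells. After that scaling, Pcdh7 in library 2 was lower in OPC-like than in astrocyte-like cells. The largest finer cluster of OPC-like cells alone, given below, was lower in Pcdh7 than astrocyte-like cells in both libraries. Pcdh11x was at 133 and 146 CPM in OPC-like cells, with neuron-like cells at 76.2 and 105 CPM. None of these 3 passed over each other class (adjusted p = 1 for each).

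In oligodendrocyte-like cells Pcdh9 and Cdh19 passed over each other class, where 6.51% of all genes did, and Cdh19 lost the call in 8 of 10 alternative fits. The Pcdh9 window is shown beside that of Pcdh15, since these protocadherins were read in successive stages of the same lineage. They are chr14:93890630-93890929 on the minus strand and chr10:73821617-73821916 on the plus strand, drawn and marked as above.
Pcdh9: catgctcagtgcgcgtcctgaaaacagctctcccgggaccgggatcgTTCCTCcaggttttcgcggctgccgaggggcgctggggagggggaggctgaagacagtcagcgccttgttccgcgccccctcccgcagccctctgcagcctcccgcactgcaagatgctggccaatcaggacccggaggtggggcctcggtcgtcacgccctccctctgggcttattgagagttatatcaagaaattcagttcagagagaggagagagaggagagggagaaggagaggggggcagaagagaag
Pcdh15: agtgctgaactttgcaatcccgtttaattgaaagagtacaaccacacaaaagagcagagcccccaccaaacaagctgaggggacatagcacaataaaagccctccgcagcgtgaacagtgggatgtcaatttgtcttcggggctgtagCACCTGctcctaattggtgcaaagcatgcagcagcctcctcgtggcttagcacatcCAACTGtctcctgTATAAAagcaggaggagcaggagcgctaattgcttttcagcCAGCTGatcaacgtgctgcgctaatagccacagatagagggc

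The Pcdh9 window held 1 Ets-type match and no E-box, and the Pcdh15 window 3 E-boxes and 1 TATA-box match. The latter lies inside the annotated gene, downstream of its first base. Pcdh9 (chr14:93013410-93890679, minus strand), a delta-1 protocadherin, was at 713 and 756 CPM in oligodendrocyte-like cells. Neuron-like cells followed at 152 and 237 CPM, and OPC-like, astrocyte-like and Ccnd2/Sox11 cells lay between 136 and 208 CPM. The log2 difference from neuron-like cells was 2.69 (SE 0.32, adjusted p = 1.60e-05), and the libraries did not overlap with those of any other class. At least 1 UMI was in 88.1% and 93.5% of oligodendrocyte-like cells, and in 46.9% and 51.6% after thinning to 1000 UMIs. Microglia-like cells gave 4.92% and 4.29%, and 1.28% and 0.413% after thinning.

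Cdh19 (chr1:110888326-110977584, minus strand), a type II cadherin first known from Schwann cell precursors, was at 84.0 and 62.5 CPM in oligodendrocyte-like cells and at 65.3 and 52.4 CPM in astrocyte-like cells. The values of the classes overlapped between libraries, and the astrocyte-like class of library 1 exceeded the oligodendrocyte-like class of library 2. Within each library oligodendrocyte-like cells were higher, with a log2 difference of 0.81 after scaling (SE 0.21, adjusted p = 0.0215). That difference depends on the scaling, since the class also had the lowest scaling factors, 0.732 and 0.724, and it missed the threshold with library sizes alone. Astrocyte-like cells carried 2700 and 997 CPM of oligodendrocyte markers, against 81431 and 75086 CPM in oligodendrocyte-like cells. Cdh19 UMIs were in 50.5% and 47.8% of oligodendrocyte-like and 14.6% and 17.9% of astrocyte-like cells. Thinned to 1000 UMIs the shares were 10.5% and 5.9%, and 6.63% and 5.49%. The thinned astrocyte-like shares cover only the 966 and 875 cells with at least 1000 UMIs.

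Oligodendrocyte-like cells were also above the mean of the other classes for Cdh2, Cdh20, Pcdh17 and Pcdhga11, without being the highest class. Cdh20 was at 28.0 and 24.0 CPM there and Pcdh17 at 132 and 86.1 CPM, and Pcdhga11 at 4.58 and 7.53 CPM. With library sizes alone, 4 cadherins were higher and 5 lower than the mean in this class, against 19.8% and 40.2% of all genes. The TMM scaling gave 5 and 4, against 35.0% and 23.8% of all genes. The protocadherins went from 11 higher and 4 lower to 7 and 5. That change of scaling moved the median of all genes in the class by -0.51 on the log2 scale. In OPC-like cells it moved by 0.39, and 43 instead of 34 protocadherins were higher, against 44.4% instead of 26.6% of all genes.

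**Figure D2:**
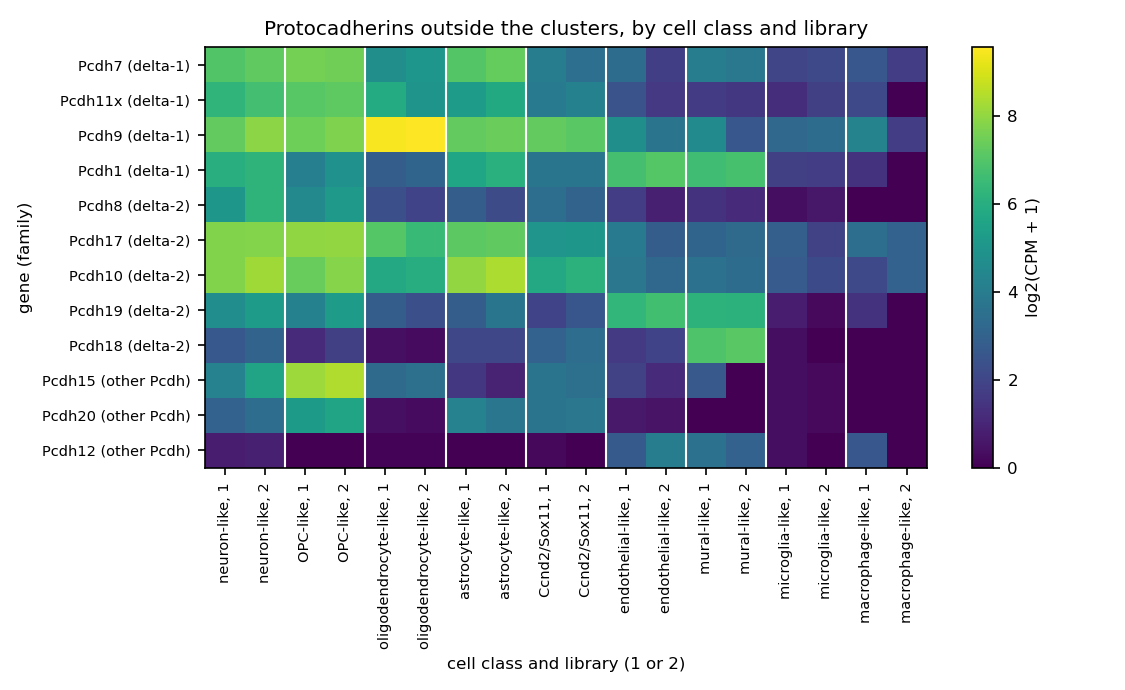
Level of the 12 protocadherins outside the gene clusters, in log2(CPM + 1), by cell class and library (columns 1 and 2 of each class). Pcdh9 is brightest in the oligodendrocyte-like columns, Pcdh15 in the OPC-like and Pcdh18 in the mural-like ones, whereas Pcdh7, Pcdh10 and Pcdh17 are shared by neuron-like, OPC-like and astrocyte-like columns.

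Astrocyte-like cells held no member that was higher than in each other class, where 2.94% of all genes were. Among the classes they had the highest levels of Cdh2, Cdh10 and Pcdh10 in both libraries. A finer oligodendrocyte-like cluster and a finer neuroblast-like cluster, given below, were higher in Cdh2 than the astrocyte-like class. Cdh2, the N-cadherin gene, was at 241 and 294 CPM in astrocyte-like and 195 and 213 CPM in Ccnd2/Sox11 cells. The log2 difference of 0.51 (SE 0.15) missed the threshold over each class (adjusted p = 0.108). Cdh2 was also at 116 and 154 CPM in neuron-like, 110 and 148 in OPC-like, 104 and 125 in oligodendrocyte-like, and 80.5 and 105 CPM in mural-like cells. Of the classes, only the endothelial-like (35.7 and 54.3 CPM) and the immune ones lay below that.

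Cdh10, type II, was at 119 and 167 CPM in astrocyte-like cells, and OPC-like cells at 78.1 and 134 CPM overlapped with them. After scaling the next class was oligodendrocyte-like, at 50.9 and 68.5 CPM, with a log2 difference of 0.76 (SE 0.21, adjusted p = 0.0828). Pcdh10, delta-2, was at 257 and 335 CPM in astrocyte-like cells against 213 and 297 CPM in neuron-like cells, a difference of 0.50 (SE 0.19, adjusted p = 0.444). Cdh11 (OB-cadherin) was at 62.4 and 128 CPM in astrocyte-like cells and at 61.7 and 138 CPM in OPC-like cells. It passed over each other class in neither, and the log2 difference between them was 0.27 (SE 0.32). Pcdhga12, at 21.5 and 29.9 CPM, and Pcdhgc4, at 12.4 and 7.11 CPM, were above the mean of the other classes, while their log2 differences from the next class, 0.35 (SE 0.27) and 0.28 (SE 0.34), did not pass.

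Cdh5 and Pcdh18 were highest in the vascular classes. Cdh5 (chr8:104101625-104144511, plus strand) was at 441 and 537 CPM in endothelial-like cells and at 118 and 152 CPM in mural-like cells, and no other class exceeded 9.05 CPM. The endothelial-like level was 1.99 higher than the mural-like one on the log2 scale (SE 0.31, adjusted p = 5.59e-04), a rule that 3.06% of all genes passed in that class. At least 1 UMI was in 62.4% and 69.6% of endothelial-like cells (exact binomial 95% intervals 58.9 to 65.8 and 65.7 to 73.2). Microglia-like cells, at greater depth, gave 1.34% and 0.975%. After thinning the shares were 35.1% and 39.0% in endothelial-like cells and 0.295% and 0.103% in microglia-like cells.

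Pcdh18 (chr3:49743296-49757325, minus strand), delta-2, was at 120 and 137 CPM in mural-like cells and at 7.002 and 9.59 CPM in Ccnd2/Sox11 cells, the next class. The difference of 4.04 on the log2 scale (SE 0.23, adjusted p = 6.07e-07) passed in a class where 2.1% of all genes passed over each other class. Pcdh18 UMIs were in 39.0% and 46.7% of mural-like cells, and in 13.9% and 16.7% after thinning. Pcdh1, delta-1 and known from epithelia of the airway, was shared by the vascular classes at 106 and 131 CPM in endothelial-like and 99.3 and 110 CPM in mural-like cells. Pcdh19, the gene of a female-limited epilepsy in people, was at 79.7 and 101 CPM and at 72.4 and 70.5 CPM. Pcdh12 (VE-cadherin-2) was at 5.61 and 14.98 CPM in endothelial-like and 10.7 and 6.99 CPM in mural-like cells, on 11 to 37 UMIs. None of these 3 passed over each other class in endothelial-like or mural-like cells. The log2 differences between those classes were 0.30, 0.44 and 0.26 (SE 0.16, 0.27 and 0.59). The mural-like class includes a cluster with both endothelial and mural markers, given below. Its part in the mural-like levels of Pcdh1 and Pcdh12 was not tested.

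Cdh6, a type II cadherin of kidney and fetal brain, was at 64.4 and 54.6 CPM in mural-like and 44.4 and 58.7 CPM in OPC-like cells, so these classes overlapped. Cdh4 (R-cadherin), type I, was above the mean in mural-like cells at 11.8 and 20.97 CPM and in Ccnd2/Sox11 cells at 12.7 and 19.2 CPM, and was highest in neuron-like cells at 23.3 and 39.9 CPM. In endothelial-like cells Pcdhga10 (9.15 and 10.1 CPM), Pcdhga2 (5.02 and 4.45 CPM) and Pcdhgb5 (4.72 and 8.50 CPM) were above the mean, with 11 to 31 UMIs per library. Their log2 differences from neuron-like cells, the next class, were 0.63, 0.76 and 0.58 with SEs of 0.46, 0.57 and 0.50. Pcdhgb5 did not pass the F test over all classes (adjusted p = 0.255), and in library 1 it was highest in neuron-like cells.

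**Figure D3:**
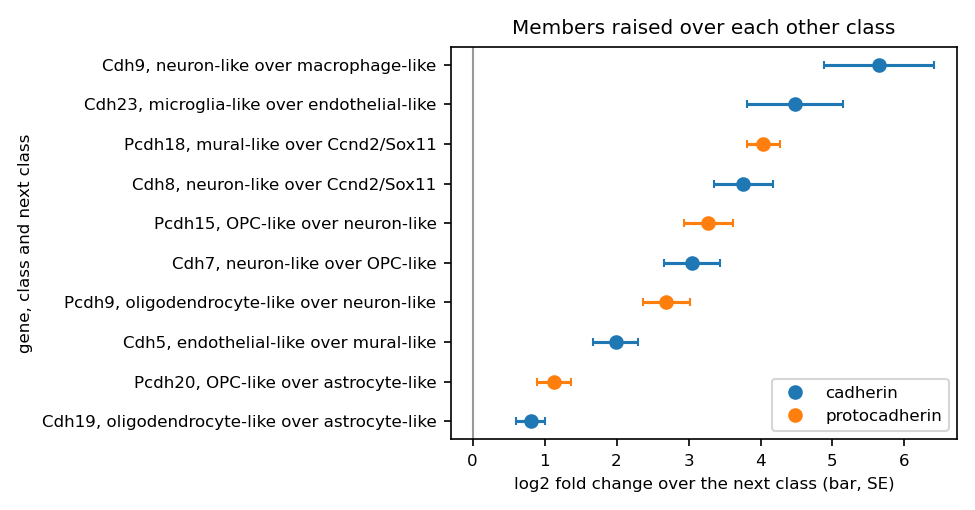
The 10 members that were higher in a class than in each other class, with the log2 difference from the next class (point) and its SE (bar). Cdh19 at 0.81 and Pcdh20 at 1.13 lie closest to 0, and Cdh9 and Cdh23, whose next classes held few UMIs, have the longest bars.

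Microglia-like cells had 1 member above all other classes, Cdh23 (chr10:60302748-60696490, minus strand), where 3.17% of all genes were. Cdh23 is, with Pcdh15, a tip-link protein of hair cells, and here the pair was read in different classes. Cdh23 was at 17.3 and 18.8 CPM in microglia-like cells on 123 and 103 UMIs, and endothelial-like cells, the next class after scaling, had 6 UMIs in library 1 and none in library 2. The log2 difference was 4.48 (SE 0.67, adjusted p = 0.0251), and 3.53 in library 1 alone. The call was lost in 7 of 10 alternative fits. Macrophage-like and OPC-like cells had no Cdh23 UMI, which allows up to 5.01 and 6.95 CPM in the former and 0.944 and 0.932 CPM in the latter. Cdh23 UMIs were in 9.49% and 9.16% of microglia-like cells and in 1.67% and 1.55% after thinning. Macrophage-like cells had no member above each other class, where 1.45% of all genes were.

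Ccnd2/Sox11 cells also had none, where 3.73% of all genes were. This class included cells that the finer clustering named neuroblast-like (592 and 473 in separate clusters), progenitor-like (445) and ependymal-like (148). Its named members were Cdh2, Cdh4 and Cdh24, given above, and Pcdhb4 (3.64 and 3.97 CPM), Pcdhga9 (4.90 and 8.93 CPM) and Pcdhgb6 (4.48 and 7.60 CPM). The log2 differences of these 3 clustered genes from the next class were 0.63, 0.20 and 0.17 with SEs of 0.54, 0.49 and 0.44. Pcdhga9 did not pass the F test over all classes (adjusted p = 0.205). In library 1 both Pcdhga9 and Pcdhgb6 were highest in neuron-like cells.

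The clustered protocadherins were low one by one, and their sums ordered the classes differently in each cluster. The 14 alpha genes together gave 51.7 and 65.5 CPM in neuron-like, 30.9 and 34.1 CPM in Ccnd2/Sox11 and 20.5 and 37.3 CPM in OPC-like cells. All other classes were at 6.99 CPM or less, and macrophage-like cells had no alpha UMI. The 22 beta genes gave 190 and 251 CPM in neuron-like, 165 and 213 CPM in OPC-like and 90.5 and 89.6 CPM in Ccnd2/Sox11 cells. Astrocyte-like, endothelial-like and mural-like cells followed at 47.1 to 68.3 CPM, oligodendrocyte-like cells at 31.2 and 37.5 CPM, and microglia-like cells at 5.22 and 5.65 CPM.

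The summed gamma genes were spread over more classes than the alpha or beta genes. Their sums were 121 and 181 CPM in OPC-like, 119 and 161 CPM in astrocyte-like, 121 and 147 CPM in neuron-like and 88.4 and 103 CPM in Ccnd2/Sox11 cells. The first 3 classes overlapped, and both Ccnd2/Sox11 sums lay below them. Endothelial-like cells gave 82.9 and 91.9 CPM, mural-like cells 67.6 and 76.9 CPM, and microglia-like cells 35.8 CPM in both libraries. Microglia-like cells thus kept gamma UMIs (254 and 196) where alpha (1 and 3) and beta (37 and 31) were nearly absent. Counted gene by gene against the mean of the other classes, all 5 tested alpha genes were higher in neuron-like cells, 4 in Ccnd2/Sox11 and 4 in OPC-like cells. Of 21 beta genes 18 were higher in neuron-like, 17 in OPC-like, 12 in Ccnd2/Sox11 and 6 in astrocyte-like cells. Of 17 gamma genes 7 were higher in neuron-like, 7 in astrocyte-like, 5 in Ccnd2/Sox11, 5 in endothelial-like and 4 in OPC-like cells. The last 3 of these gamma counts are near or below the shares of all genes given above (31.7%, 26.0% and 26.6%). The count of 6 beta genes in astrocyte-like cells is also near the share of all genes there (26.7%).

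Some gamma genes departed from that order. Pcdhgc3, which lies near the downstream end of the gamma cluster, was at 30.5 and 46.3 CPM in OPC-like and 21.8 and 33.0 CPM in astrocyte-like cells. Neuron-like cells had 5.17 and 0.799 CPM of it, and oligodendrocyte-like cells 0.752 and 0.284 CPM. Its neighbour Pcdhgc5 was at 13.6 and 16.8 CPM in neuron-like and 10.8 and 14.2 CPM in astrocyte-like cells, and at 4.41 and 6.53 CPM in OPC-like cells. These genes were picked for description after their values were seen, and they share last exons, so their split is uncertain.

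**Figure D4:**
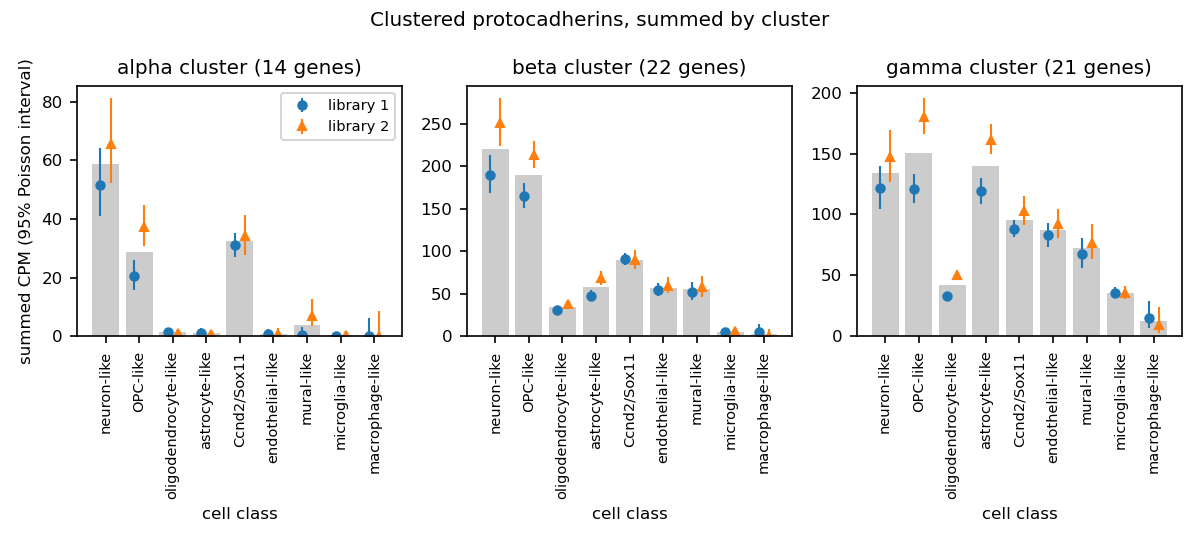
Summed level of the alpha (14 genes), beta (22) and gamma (21) protocadherin clusters in CPM by cell class, with a point for each library, its exact Poisson 95% interval (line) and the mean of both (bar). The alpha sum is at 20.5 CPM or more only in neuron-like, Ccnd2/Sox11 and OPC-like cells, the beta sum reaches 251 CPM in neuron-like cells, and the gamma sum spreads over more classes.

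More than 1 beta gene was read in some cells, at smaller shares once cells were thinned. In OPC-like cells 60.4% and 65.4% had a UMI of any beta gene, and 28.6% and 29.7% had UMIs of at least 2. Neuron-like cells, at a median of 2470 and 2638.5 UMIs per cell against 7398 and 7334.5, had 36.3% and 51.2% with any and 18.02% and 25.4% with at least 2. Thinned to 1000 UMIs, the shares with any beta gene were 18.4% and 19.8% in OPC-like, 16.2% and 23.1% in neuron-like and 0.884% and 0.413% in microglia-like cells. Cells with fewer UMIs were left out of the thinned shares, which kept 271 and 208 of the 383 and 260 neuron-like cells. The thinned shares with at least 2 were 2.89% and 0.723% in OPC-like and 1.85% and 6.25% in neuron-like cells. At that depth the order of OPC-like and neuron-like cells was no longer the same in both libraries. No set of genes per cell can be read at this depth, since a gene without a UMI may still be expressed.

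Which class was highest was compared between the libraries for members with at least 100 UMIs. It was the same class in both libraries for 12 of 16 cadherins and 11 of 11 unclustered protocadherins. For the clustered genes it was the same for 1 of 2 alpha, 9 of 17 beta and 8 of 18 gamma genes. The clustered genes had at most 869 UMIs each, whereas the unclustered protocadherins counted here had at least 554, and the part of this was not tested. These counts describe the libraries, are given without the same count over all genes, and were not tested.

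The proteins that cadherins work with were taken as 3 lists. Of 12 catenins and cadherin partners, 7 were higher in endothelial-like cells than the mean of the other classes and 4 lower, against 26.0% and 18.9% of all genes, with a median of 1.35 on the log2 scale against -0.03 over all genes. In mural-like cells 9 were higher and 3 lower, against 22.5% and 17.2% (median 1.07 against -0.09). Over each other class 4 passed in endothelial-like cells, where 3.06% of all genes did. Ctnnb1 (beta-catenin) was at 697 and 943 CPM there, 1.16 on the log2 scale above mural-like cells (SE 0.15, adjusted p = 8.8e-05). Ctnna1 (alpha-catenin) was at 341 and 319 CPM (0.79, SE 0.13), Afdn (afadin) at 273 and 266 CPM (1.10, SE 0.15 over Ccnd2/Sox11 cells) and Pkp4 at 204 and 166 CPM (0.80, SE 0.14 over oligodendrocyte-like cells).

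Vcl (vinculin), which links junctions to actin, was at 263 and 353 CPM in mural-like cells, 0.75 above astrocyte-like cells (SE 0.18, adjusted p = 0.0416). Ctnna3, an alpha-catenin best known from heart, was at 26.0 and 33.4 CPM in oligodendrocyte-like cells, 0.97 above mural-like cells (SE 0.24, adjusted p = 0.0185). In OPC-like cells, where many members were high, 3 of the 12 partners were higher than the mean, a share near the 26.6% of all genes, and 7 were lower, against 21.4% (median -0.63). Of the 4 proteases that cut cadherins, 3 were higher than the mean in microglia-like cells, against 33.6% of all genes. The count was also 3 in endothelial-like and in oligodendrocyte-like cells, against 26.0% and 35.0%. Adam17, at 117 and 138 CPM in microglia-like cells, was 1.02 above endothelial-like cells (SE 0.15, adjusted p = 7.59e-04). Of the 3 regulators of the protocadherin clusters, Ctcf, Rad21 and Smchd1, all were higher than the mean in Ccnd2/Sox11, endothelial-like and microglia-like cells, against 31.7%, 26.0% and 33.6% of all genes. All 3 were lower in neuron-like and astrocyte-like cells, against 29.5% and 26.6%.

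Finer clusters, given as a description with no test, divided the mural-like class. A cluster led by Vtn and Kcnj8 (322 cells) had Pcdh18 at 259 and 317 CPM, Pcdh19 at 121 and 123 CPM and Cdh2 at 206 and 262 CPM. A cluster led by Acta2 and Myh11 (114 cells) had Pcdh18 at 53.1 and 84.6 CPM, Pcdh19 at 4.83 and 7.20 CPM and Cdh2 at 14.5 and 10.8 CPM. Cdh6 ran the other way, at 23.0 and 11.1 CPM in the former and 167 and 137 CPM in the latter. A fibroblast-like cluster of 55 cells had Cdh5 at 83.8 and 95.4 CPM.

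Most Cdh5 UMIs of the mural-like class came from another cluster. The cluster led by Vtn and Kcnj8 had 2 Cdh5 UMIs in each library (3.84 and 5.57 CPM). A cluster of 64 cells that was left unnamed, since it carried both endothelial (18778 and 18437 CPM) and mural markers (13030 and 14854 CPM), had 203 and 217 Cdh5 UMIs, or 374 and 407 CPM. The whole mural-like class held 220 and 239. The mural-like level of Cdh5 given above therefore came mostly from this cluster. Its median depth was 15505.5 UMIs per cell, against 3763 and 4403 in the mural-like class, with 29 and 35 cells by library. The unnamed cluster held 543041 and 533334 of the 1863702 and 1573992 UMIs of the mural-like class. The mural-like counts of the partner lists include it too, and its part in them was not tested.

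The oligodendrocyte lineage was also divided. A cluster of 270 cells, 183 from the OPC-like and 87 from the oligodendrocyte-like class, was led by Bmp4, Fyn and Gpr17. It was named OPC-like by 3 of the 7 OPC markers, while its oligodendrocyte markers summed to 69094 and 73762 CPM. Pcdh15 was at 13.8 and 11.4 CPM in this cluster, against 435 and 462 CPM in the largest OPC-like cluster. Pcdh20 was at 0.407 and 0.477 CPM against 61.1 and 67.3 CPM, and Cdh13 at 63.9 and 54.4 CPM against 171 and 172 CPM. Pcdh9 ran the other way, at 494 and 715 CPM against 204 and 246 CPM. Pcdh7 was at 242 and 248 CPM against 111 and 130 CPM, and Pcdh17 at 506 and 301 CPM against 293 and 302 CPM. The OPC-like levels of Pcdh15 and Pcdh7 in the class as a whole are thus averages over cells that differ widely.

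Oligodendrocyte-like cells held a cluster of 717 cells with a median of 22.3% mitochondrial UMIs and 2510 UMIs per cell. Cdh2 was at 428 and 509 CPM in it, against 61.2 and 102 CPM in the largest oligodendrocyte-like cluster. Mitochondrial share and depth moved with Cdh2 here, and their part in the difference was not tested. Within the Ccnd2/Sox11 class Cdh2 was at 401 and 590 CPM in the shallower of the neuroblast-like clusters, at 242 and 294 CPM in the other, and at 138 and 143 CPM in the progenitor-like cluster.

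**Figure D5:**
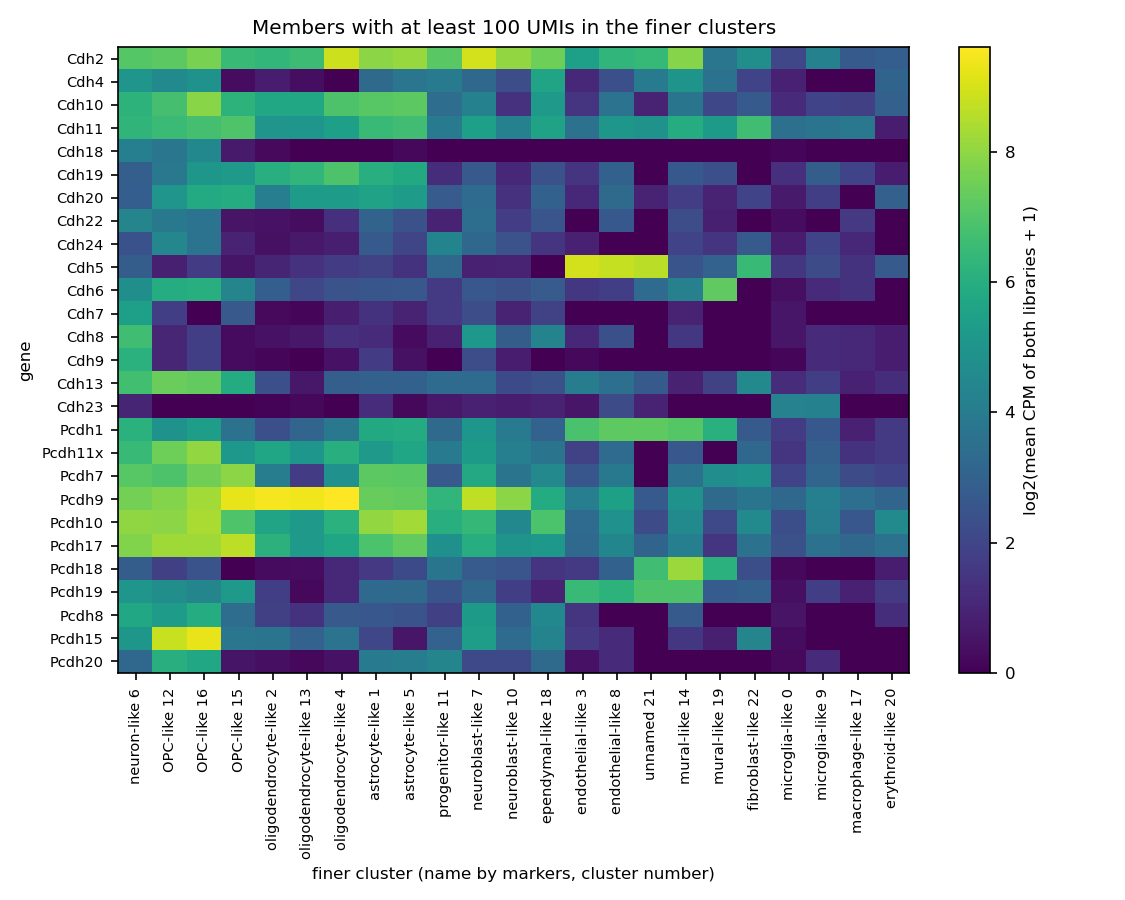
Level of the members outside the gene clusters with at least 100 UMIs, in log2 of 1 plus the mean CPM of both libraries, by finer cluster (name and cluster number). Pcdh15 falls from the main OPC-like clusters to the cluster led by Bmp4, Fyn and Gpr17 while Pcdh9 is higher there, and Cdh5 is bright in the endothelial-like clusters and in the unnamed cluster of 64 cells.

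The study set astrocytes with Crym, the gene of mu-crystallin, against those without, and the members were compared within the astrocyte-like class at its Crym threshold. Here counts were summed per group and library, not compared cell by cell. With so few sums, the spread behind these p-values came mostly from all genes together. There were 501 and 436 Crym+ cells and 810 and 545 Crym- cells. A threshold of at least 1 Crym UMI gave the same groups, so a Crym- cell is a cell without a Crym UMI. Such a cell may still express Crym. The Crym+ cells were deeper, at a median of 2433 and 5175 UMIs against 1472 and 1955. Of the 92 members, 13 were read in enough cells to be tested, and 1 differed, where 5.27% of 6029 genes did. Cdh19 was at 48.6 and 43.8 CPM in Crym+ and at 83.0 and 63.1 CPM in Crym- cells, so the groups did not overlap, with a log2 difference of -0.68 (SE 0.14, edgeR quasi-likelihood test, adjusted p = 0.0106). The call was lost with DESeq2 (adjusted p = 1.00) and without the library block (adjusted p = 0.845), at log2 differences of -0.68 and -0.69. Oligodendrocyte markers, a class in which Cdh19 was high, summed to 1880 and 943 CPM in Crym+ and 3576 and 1064 CPM in Crym- cells. The part of these markers and of depth in the Cdh19 difference was not tested.

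Cdh20 was at 29.2 and 37.5 CPM in Crym+ and 39.0 and 58.3 CPM in Crym- cells and missed the threshold (-0.57, SE 0.17, adjusted p = 0.0603). Cdh10 was lower by less, at -0.25 (SE 0.10, adjusted p = 0.158). The other 10 lay between -0.19 and 0.32 on the log2 scale, among them Cdh2 at -0.09 (SE 0.09) and Pcdh10 at 0.09 (SE 0.09). The median over the 13 was -0.09, against -0.0031 over all genes tested.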

How the data were processed

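Single-cell RNA was measured with 10x Genomics 3′ kits (v2 and v3 are named) in 2 libraries of striatum. The deposited values are unnormalized counts of UMIs for each gene in each barcode, which the authors made with Cell Ranger on mm10. The submitters' processing notes give version 4.0 and the matrix headers 4.0.0, the paper's methods name another version, and the annotation release is not given in the sources used here. Coordinates are from GENCODE M21 (GRCm38), matched by gene identifier. The file pairs gene identifiers with symbols, and no column of values was left unmapped.

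Cells with at least 300 detected genes were kept, and Scrublet (expected rate 6%) removed 115 and 152 barcodes as doublets. Cells were integrated and clustered with Seurat 5.3.0 (30 components, resolution 0.08; 0.32 for the finer clusters) without the members, the partner lists and Crym. Clusters were named by fixed markers. The thresholds of that naming (at least 3 markers raised 2-fold) were set after counts were seen. A class led by Ccnd2, Sox11 and cell-cycle genes, with as many progenitor as neuroblast markers among its top 10 genes, is called by its 2 leading genes. It was kept as the same class in the alternatives, of which 2 (at least 500 genes, under 20% mitochondrial UMIs) had more of the former. Erythroid-like cells (86 and 11) were left out of the tests.

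Counts were summed per class and library and fitted for all genes in 1 model with edgeR 4.0.16 (quasi-likelihood, TMM, library as a block, 15535 genes after its filter). SEs are the absolute log2 difference over the root of F, and adjusted p-values are Benjamini-Hochberg over all genes tested. A member was higher than each other class where all 8 differences were above 0 and the largest p passed. Crym+ cells had a value above 0.25 on the natural log of 1 plus UMIs per 10000, and genes in at least 10% of either group's cells were tested. Intervals are exact (95%), floors are 3 counts, and both cover counting error only. Shares were repeated with cells thinned to 1000 UMIs. Cells with fewer UMIs than that were left out of the thinned shares and the thinned fits, so thinned and unthinned values cover different cells. The code of the fits was run on simulated counts with few altered genes and no difference between libraries. Those settings differ from the data, so that run does not show how the p-values behave here.

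For each class the text names the 3 Cdh and 3 Pcdh members furthest above the next class, among those above the mean of the others with at least 10 UMIs in each library. Every member or partner above each other class, or changed by Crym, was added. The members and lists were chosen with earlier results of these data known. Alternatives were DESeq2 1.42.0, library sizes alone, no gene filter, no block, resolution 0.32, doublets kept, at least 500 genes, under 20% mitochondrial UMIs, members in the clustering, thinning, and each library alone. Both libraries held every class, so the library was the block. Deviations of classes from their means over libraries correlated above 0.1 in 32 of 36 pairs of classes (lowest 0.072, median 0.247).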

Additional observations from a re-analysis of the deposited data

Results flagged for a closer look

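Members were also read in erythroid-like cells, which entered no comparison. Over the 86 and 11 cells of the libraries there were 11 UMIs of Pcdh9, 9 of Cdh2, 8 of Cdh5, 7 of Pcdh17, 6 of Pcdh10 and 4 of Pcdh7. They are listed because each had more than 3 UMIs there, a cut that is not a test. All or most of the UMIs of each were in library 1, except for Pcdh10, with 3 in each library. Erythroid-like cells hold haemoglobin genes as their leading genes, and the same members were high in other classes of the same libraries. Where these UMIs came from was not tested.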

How the results depend on the processing

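Pcdh18, Cdh8, Pcdh9 and Pcdh15 passed over each other class under all 10 alternative fits. Over those fits the count of cadherins above each other class ran from 3 to 7 and that of protocadherins from 3 to 5. The share of all genes that passed ran from 20.4% to 31.5%, against 28.6% in the main fit. With cells thinned to 1000 UMIs there were 3 cadherins of 13 tested, where 20.5% of all genes passed. Fewer genes then passed the filter, 11322 in place of 15535, and 17 of 17 protocadherins tested differed among classes. In the main fit 97.0% of all genes differed. DESeq2 kept Cdh7, Cdh8, Cdh9, Pcdh9, Pcdh15 and Pcdh18 and lost Cdh5, Cdh19, Cdh23 and Pcdh20. Library sizes alone lost Cdh19 and Cdh23, and a limit of 20% mitochondrial UMIs lost Cdh7, Cdh9, Cdh19, Cdh23 and Pcdh20. Under that limit the neuron-like class was larger and shallower, as given above. Finer classes, doublets kept, DESeq2 or other filters added Cdh2, Cdh10 or Pcdh10 in astrocyte-like, Cdh6 in mural-like, Cdh13 in OPC-like or Pcdh8 in neuron-like cells, and the causes were not tested. No direction reversed.

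Without the replicate block, 4 cadherins and 3 protocadherins passed over each other class, where 22.2% of all genes did, and 18 and 46 differed among classes. The counts that differed, here and with thinned cells, are given without the share of all genes. Between Crym+ and Crym- cells 0 members then passed in edgeR (1 at an unadjusted p under 0.05), and 1 of all 6029 genes, against 318 with the block.

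Between Crym+ and Crym- cells DESeq2 called 0 members (1 at an unadjusted p under 0.05) and 46 genes in all. With thinned cells Cdh19 was not tested, and 0 of 6 members passed (3 unadjusted).

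Leaving out either library leaves no residual and hence no test. In library 1 and library 2 alone the log2 differences from the next class were 2.54 and 3.63 for Cdh7, 3.18 and 4.42 for Cdh8, 5.31 and 4.08 for Cdh9, and 0.78 and 1.51 for Pcdh20. At this depth a count of 0 allows up to 3 counts.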

Other observations

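Cdh11 was higher in library 2 than in library 1 in all 9 classes. The log2 ratio of its CPM (library 2 over library 1, 1 CPM added to each) had a median of 1.15 over the classes and ran from 0.57 to 2.48, on 3315 UMIs. Over the 64 members with at least 100 UMIs the median of these medians was 0.054, and Cdh11 was the 1 member higher in library 2 in every class. Of all 14467 genes with at least 100 UMIs, 440 were higher in library 2 in every class and 25 had a larger median than Cdh11. The levels of Cdh11 are therefore given by library, and no value here shows what set them apart.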
